A study of Arabidopsis thaliana with 13 samples.

Results

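The comparison described here sets the second day of a vascular induction culture (30, 36, 42 and 48 h, n = 4 arrays) against the first day (6, 12, 18 and 24 h, n = 4 arrays). These are 8 of the 13 arrays of the series, chosen by their labelled times alone. The tissue came from Arabidopsis thaliana (Col-0), as cotyledons taken at 6 days from seedlings grown in liquid MS medium at 22 °C under continuous light. Both days, and the third day of 54 to 72 h as well, were cultured in one medium with 1.25 mg/L of the auxin 2,4-D, 0.25 mg/L of the cytokinin kinetin and 10 µM bikinin, an inhibitor of GSK3-like kinases. The 0 h array held cotyledons before culture, and no array of culture without the inducers was used here, so induction and time in culture cannot be told apart. Each time had 1 array. The 4 arrays of a day therefore stand in for replicates, their SD holds change within the day, and p-values reflect no more than the scatter of these arrays. How many plants went into a sample is not given in the sources used here.

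This culture, known as VISUAL, makes leaf cells lose their mesophyll identity, divide as procambium-like cells and then turn into xylem or phloem. Auxin and cytokinin drive the divisions, and blocking the GSK3-like kinases opens the way to vascular fates. In a cotyledon most RNA comes from mesophyll cells, whose chloroplasts carry the photosystems, the NADH dehydrogenase-like (NDH) complex and the Calvin cycle. The second day against the first asks which of these programmes moved as the culture passed from its first to its second day. In whole cotyledons, fewer cells of a type and less RNA per cell cannot be told apart. Measured mesophyll genes were bright before culture, RCA (Rubisco activase) standing at 12.13 at 0 h. The listed markers of epidermis, guard cells, myrosin cells and root had no probe set with a gene name in the annotation used, and their part in any result was not tested.

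By overall level there were 2 sets of arrays. As deposited, array medians ran from 5.82 to 5.99 on the 8 arrays from 30 h on and from 5.15 to 5.35 on the 5 arrays up to 24 h. Levels below are therefore centred on each array's median, with the mean of the medians, 5.65, added back. The values are logs whose base is not stated; they are read as log2, and folds depend on it. The break falls exactly between the days, so array set and day cannot be told apart in the difference itself. A gene was called where its log2 difference was 1 or more in size and its limma p, adjusted after Benjamini and Hochberg, lay under 0.05. A called gene was kept, and is reported as higher or lower, only where the fitted change over the 18 h inside 1 day or both was at least 0.5 the same way, and the other day did not go 0.5 or more the other way. For each gene the step between the 24 and 30 h arrays was also taken off the difference. What remains is called the part inside the array sets, and it rests on those arrays singly.

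Of 10982 genes, 561 were called higher on the second day (5.11%) and 912 lower (8.3%). The trend rule kept 483 of the higher genes (4.4% of all genes) and 794 of the lower ones (7.23%), 1277 in all (11.6%). Among genes that were not called, 28% met the trend rule in the direction of their own difference. Of the 78 higher genes not kept, 71 had no trend of 0.5 and 7 had one the other way. Of the 118 lower ones these numbers were 87 and 31. Just inside the rule were AT4G31115, AT1G33260 and AT4G23030 with trends of 0.50, 0.50 and 0.51 in the direction of the call, and just outside it AT1G67780, AT5G62210 and AT4G24970 with 0.50 each. The balance between the directions depends on scaling. The share of called genes that were higher was 38.1% after median centring, 47.3% after quantile normalization, 56.9% after centring on probe sets that name 1 gene and 92.3% for values as deposited. The median difference over all genes was -0.25, -0.14, -0.06 and 0.42 under these scalings.

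In the kept higher genes the median log2 difference was 1.62. The median step between 24 and 30 h was 0.49 and the median part inside the array sets 1.06. In the kept lower genes the median difference was -1.30, with a median step of -0.51 and a median part inside the sets of -0.85. The part inside the sets was at least 1 in the direction of the call in 267 of the 483 higher genes (55.3%) and in 280 of the 794 lower ones (35.3%). Over all genes the median step was -0.13 and the median part inside the sets -0.11. The trend rule selects on changes inside the days, so the direction of this part in kept genes is largely set by the rule. The plot of difference against the part inside the sets shows both values for each gene.

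**Figure D1:**
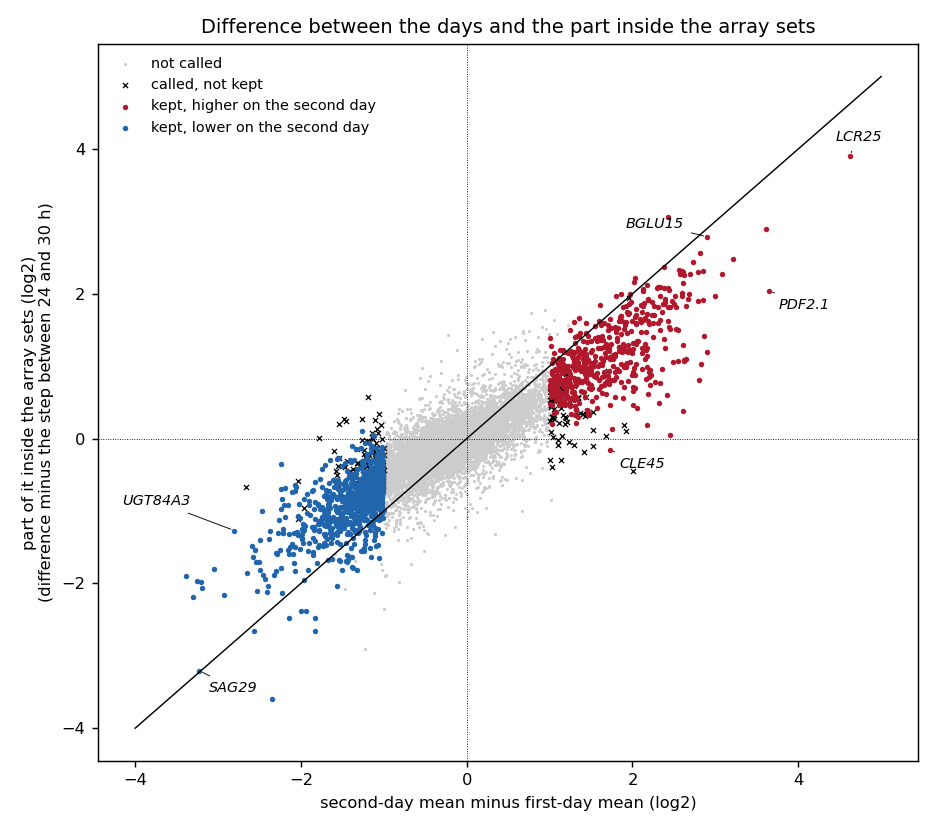
Each point is 1 of 10982 genes, with second-day mean minus first-day mean on the x axis and the part of it inside the array sets on the y axis, both in log2; the line marks equal values. Kept genes lie mostly between the line and the horizontal axis, a place that the trend rule itself favours. SAG29 lies on the line (difference -3.22, part inside the sets -3.20) and CLE45 below 0 on the y axis (difference 1.73, part inside the sets -0.16).

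The 6 h steps of the kept genes are given as a description, since the trend rule itself favours genes with a step inside a day. The step from 18 to 24 h, inside the first array set, was the largest 6 h step in the direction of the call in 249 of the 483 higher genes (51.6%) and in 308 of the 794 lower genes (38.8%). The step across the break was the largest in 81 (16.8%) and 230 (29%), and that from 42 to 48 h in 83 (17.2%) and 17 (2.14%). From 18 to 24 h the median kept higher gene moved by 0.81 and the median kept lower gene by -0.52, against -0.06 over all genes. Across the break these medians were 0.49 and -0.51. Steps between 6 and 18 h were smaller, with medians of 0.13 and 0.14 in the higher genes and -0.17 and -0.26 in the lower ones. Between 30 and 48 h the medians were 0.27, 0.09 and 0.21 in the higher genes and -0.06, -0.30 and -0.25 in the lower ones. The SD over all genes of the step from 24 to 30 h was 0.39, against 0.29 to 0.44 for the 6 steps inside a day. Without the 24 h array 441 higher and 888 lower genes were kept.

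Fitted trends inside a day were tested on their own. Over the first day 492 genes rose (4.48%) and 650 fell (5.92%) by at least 1 over 18 h. Over the second day 32 rose (0.291%) and 170 fell (1.55%). The second-day counts rest on single arrays. Without the 30 h array both were 0, without the 48 h array they were 0 and 5, without the 36 h array 11 and 58, and without the 42 h array 54 and 93. Of the kept higher genes, 279 met the threshold of 0.5 in both days, 82 on the second day alone and 122 on the first day alone. Of the kept lower genes, 373 met it in both days, 144 on the second day alone and 277 on the first day alone.

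**Figure D2:**
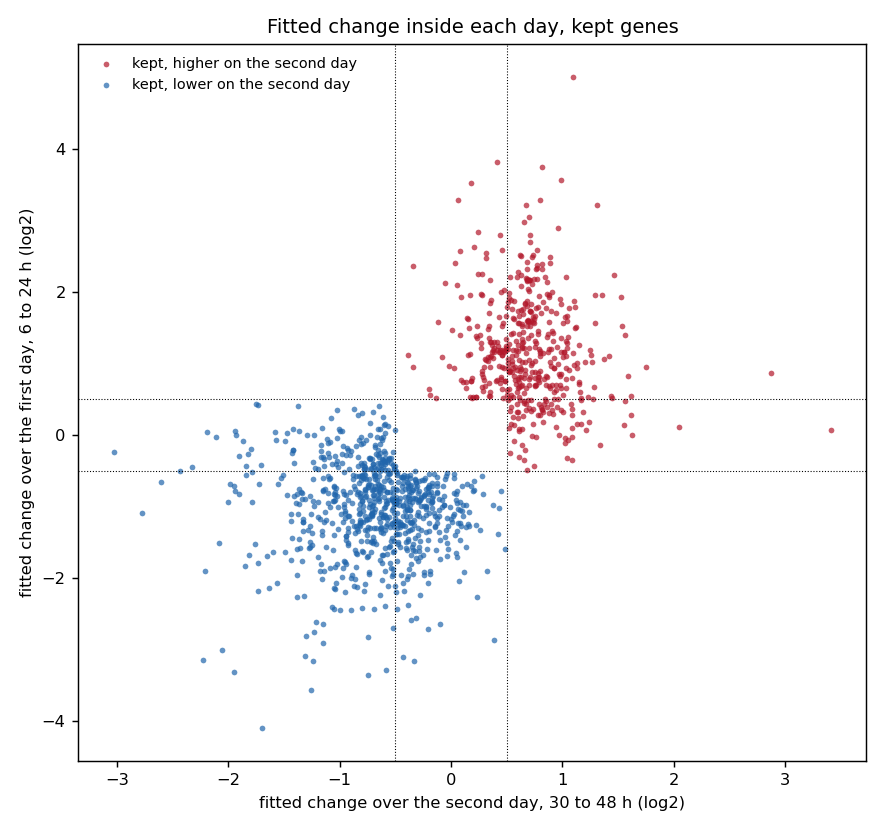
Each point is 1 kept gene, with the fitted log2 change over 30 to 48 h on the x axis and over 6 to 24 h on the y axis; dotted lines mark the threshold of 0.5. The rule itself fixes the empty centre; the median kept higher gene changed by 0.68 over the second day and 1.1 over the first, and the median kept lower gene by -0.64 and -0.95.

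Levels outside the 2 days were not used by the trend rule, though the third-day arrays entered the spread of the fit behind the calls. Of the kept higher genes, 461 of 483 had a third-day mean at least 1 above their first-day mean, and of the kept lower genes 732 of 794 had one at least 1 below it. Kept genes were chosen with second-day means at least 1 from their first-day means, which favours such counts. The share over all genes was not counted. Relative to the second-day mean, the third-day mean lay within 0.5 in 244 of the higher genes (50.5%) and 495 of the lower ones (62.3%), against 82.5% of all genes. It lay at least 0.5 further in 230 higher genes (47.6%) and 280 lower genes (35.3%), and at least 0.5 back in 9 and 19. Of all genes, 9.42% had a third-day mean at least 0.5 above the second-day mean and 8.12% at least 0.5 below it. At 0 h, 112 of the kept higher genes (23.2%) stood at least 1 below their first-day mean, and 6 (1.24%) at least 1 above it. Of the kept lower genes, 91 (11.5%) stood at least 1 below it and 182 (22.9%) at least 1 above. For all genes these shares were 7.8% and 6.73%. The third-day arrays lie in the same array set as the second day, so array set and day cannot be told apart there either. These counts share arrays with the comparison and are descriptions.

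Genes of mitosis were higher on the second day. The 6 measured genes of the G2 and M phase list, of 33 in it, were all called and kept higher (6 of 6, against 4.4% of all genes), with a median difference of 2.24 and a median of 1.75 inside the array sets, against -0.25 and -0.11 over all genes. AUR1, an Aurora kinase of the spindle and cell plate, stood at 9.64, 10.29, 10.31 and 10.34 on the second day, in time order, against 6.90, 7.38, 7.69 and 9.28 on the first. The 24 h array was the highest of the first day, and the days did not overlap, as in 48.2% of all genes (12.8% higher, 35.5% lower). The difference of 2.33 ± 0.39 (SE) is 5.03-fold, with an adjusted p of 0.000485. AUR2 had 8.93, 9.28, 9.29 and 9.45, against 6.26, 6.69, 6.93 and 8.44 on the first day (4.46-fold, adjusted p = 0.00041). BUBR1, of the spindle assembly checkpoint, had 8.95, 9.24, 9.53 and 9.69, against 6.31, 6.61, 6.44 and 8.34 (5.38-fold, adjusted p = 0.00029). AT5G15510, a member of the list without a name in the annotation, rose 8.43-fold (adjusted p = 0.000252). In each of the 4 genes the first-day trend was called too, at fitted changes of 1.78 to 2.39 over 18 h.

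A wider group of 20 mitosis genes, assembled by symbol, held 14 called higher and 0 lower, 12 of them kept. Of all genes 5.11% were called and 4.4% kept higher. The group shares AUR1, AUR2, AUR3, BUBR1 and BUB3.1 with the G2 and M phase list, and had a median difference of 1.32. Its median step was 0.96 from 18 to 24 h, with 17 of 20 genes up, and 0.33 across the break. The following members were chosen after their values were seen. TOPII, which encodes topoisomerase II, had 9.32, 9.63, 9.73 and 9.92 on the second day, against 7.06, 7.12, 7.18 and 8.83 on the first. It was flat until 18 h and 4.29-fold higher on the second day. KINESIN-12B, a motor protein of the phragmoplast, had 7.75, 8.11, 8.18 and 8.41, against 5.81, 5.83, 5.47 and 7.67, a step across the break of 0.09. AUR3, Haspin, a kinase of histone H3, 3xHMG-box1, which binds mitotic chromosomes, and BUB3.2 rose 3.2-fold, 3.77-fold, 3.81-fold and 2.99-fold. Their adjusted p lay between 7.32e-05 and 0.000557. HTR12, the centromeric histone H3, and ATSMC2 were called but had too little trend to be kept (differences of 1.05 and just over 1). TUB7, a beta-tubulin gene, rose 3.6-fold, while 7 of the 10 measured tubulin and SPIRAL1-like genes had differences below 0.

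Of 16 measured DNA replication genes 0 were called by limma. Their differences of 0.10 to 0.93 were all above 0 and all under the threshold of 1, whatever their p. The lowest adjusted p was 0.000364, for SGA2, and the median first-day change was -0.15. At an unadjusted p under 0.05, 14 were higher, against 1900 higher and 5128 lower of all 10982 genes. Of the 16 replication genes, 0 were called with median centring, 1 after quantile normalization, 3 after centring on probe sets that name 1 gene and 13 with values as deposited. Of 16 subunits of nuclear RNA polymerases 0 were called either, at differences of -0.25 to 0.79, under the threshold of 1, with a median of 0.50. At an unadjusted p under 0.05, 12 of them were higher and 1 lower, and 12 were called with values as deposited. For the mitosis group 14 were called higher under each of the 4 scalings.

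**Figure D3:**
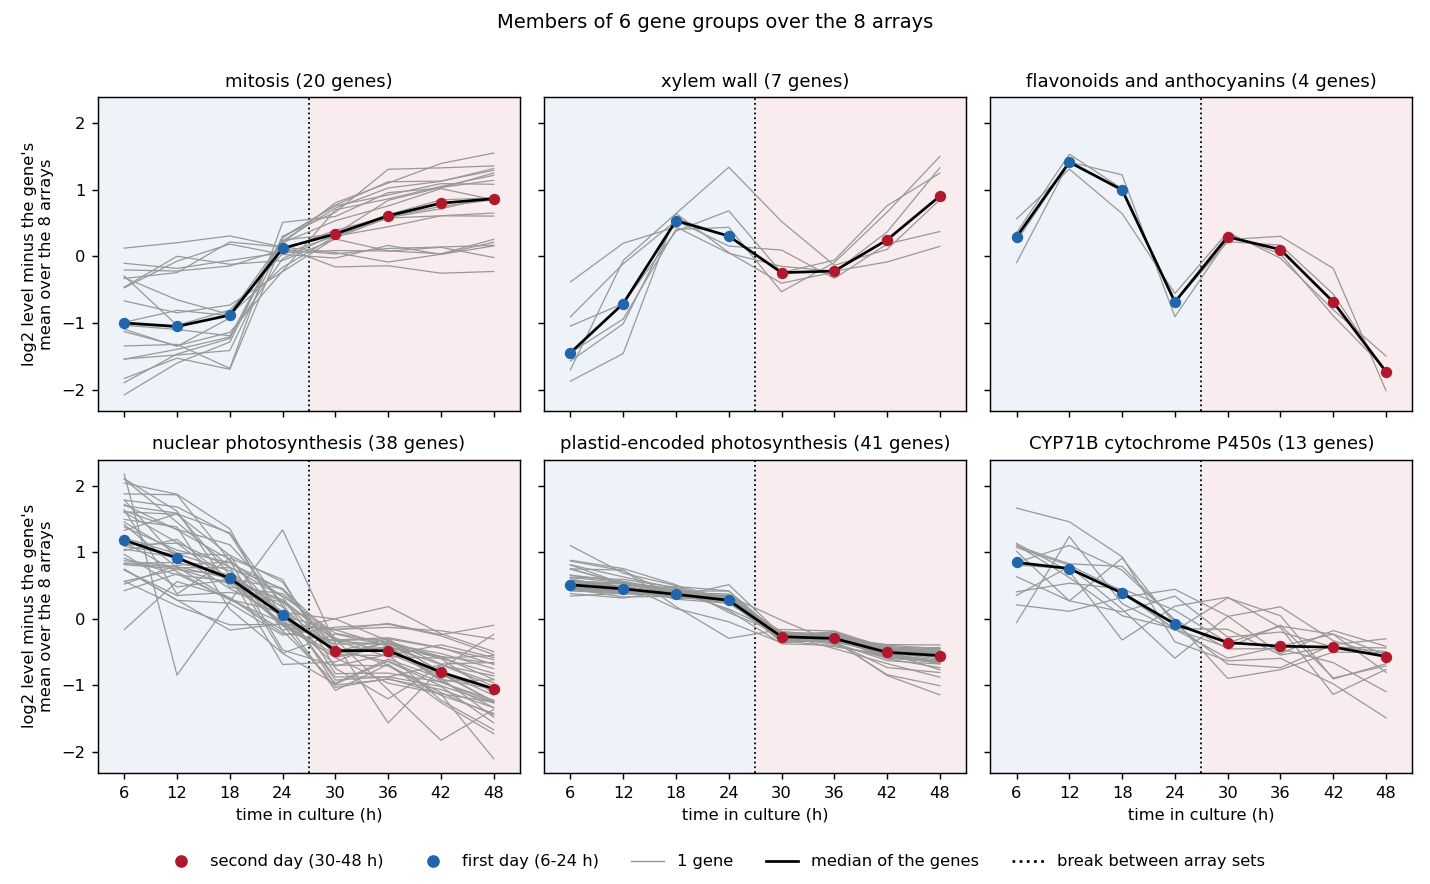
Log2 level of each gene minus its own mean over the 8 arrays, by time in culture (h), in 6 gene groups; grey lines are genes, black lines and points their medians, and the dotted line the break between array sets. The mitosis median jumps between 18 and 24 h, the nuclear photosynthesis median declines through the first day, is level from 30 to 36 h (0.03) and lower after that, plastid-encoded genes drop mainly across the break, and xylem wall and anthocyanin genes move inside the days.

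The largest kept rises with a symbol were led by defensin-like peptide genes, which encode small secreted cysteine-rich proteins. LCR25 stood at 10.56, 11.35, 11.55 and 11.71 on the second day, against 4.3, 6.24, 6.31 and 9.85 on the first. The 24 h array stood far above the rest of its day, and 3.91 of the difference of 4.62 ± 0.83 lay inside the array sets (24.6-fold, adjusted p = 0.000753). PDF2.1 had 6.96, 8.82, 8.95 and 8.86, against 4.27, 4.72, 4.66 and 5.35. Its 30 h array stood between the days, and the gene was 12.6-fold higher (adjusted p = 7.31e-05). LCR29, picked after its values were seen, rose 3.41-fold but was dim, and under a floor at the 40th percentile its difference was 0.33 and the call ended. Of 13 measured members of the family 3 were kept higher and 3 lower (against 4.4% and 7.23% of all genes). Of their differences 9 were below 0, with a median of -0.69 against -0.25 over all genes. At an unadjusted p under 0.05, 3 were higher and 7 lower, against 1900 and 5128 of all 10982 genes.

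BGLU15, a beta-glucosidase gene, had 9.52, 10.19, 10.22 and 10.40, against 5.72, 6.85, 6.75 and 9.40. Its step across the break was 0.12 of a difference of 2.90 ± 0.57 (adjusted p = 0.00124). GH9B6, a glycoside hydrolase family 9 gene, had 8.18, 8.43, 8.52 and 8.71, against 5.15, 5.65, 5.70 and 7.13 (5.87-fold, adjusted p = 0.000134). ATLP-1, a thaumatin-like protein gene, rose 6.09-fold, VPS2.2, of the ESCRT-III membrane-sorting family, 6.08-fold, and the MAP kinase gene ATMPK13 5.77-fold. JASON, known for spindle orientation in male meiosis, rose 5.04-fold, NDB4, an alternative NADH dehydrogenase gene, 4.57-fold and GSTF4, a glutathione transferase gene, 4.48-fold. In these 6 genes the part inside the array sets was 1.23 to 2.14. A pair of loci without a name completed the 4 largest rises, AT3G42725 (12.2-fold) and AT3G02120 (9.25-fold). Both were dim from 6 to 18 h, at 2.98 to 3.58 and 3.15 to 3.54, and their folds rest on these dim levels. Under the alternatives their smallest differences were 2.46 and 2.14, and both stayed called.

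**Figure D4:**
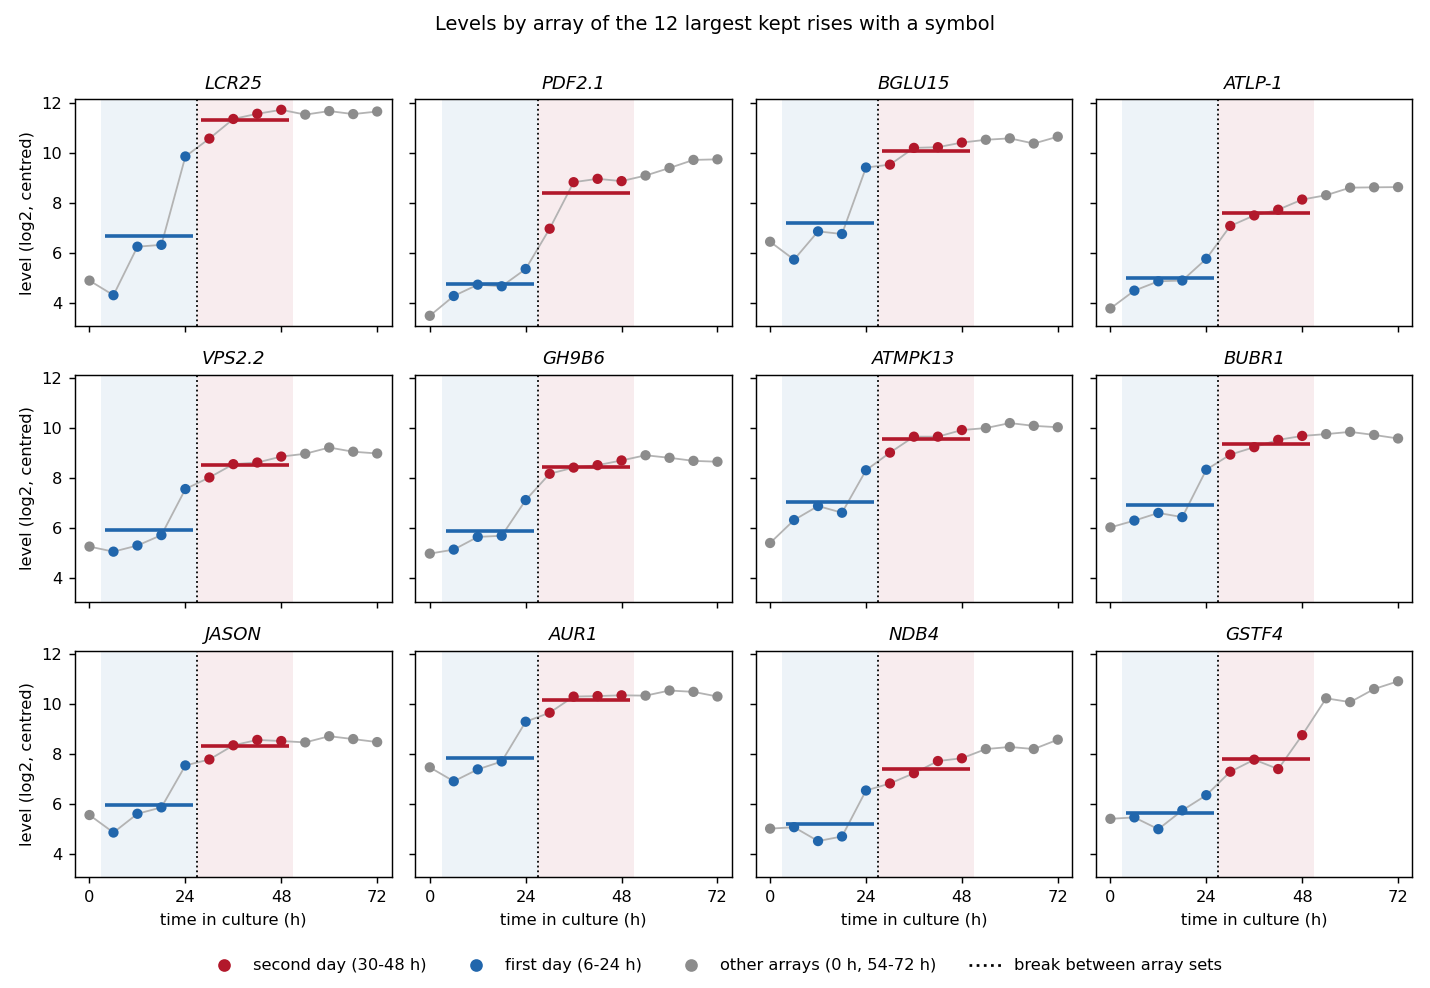
Log2 level on each of the 13 arrays by time in culture (h) for the 12 largest kept rises with a symbol; horizontal bars are day means and the dotted line marks the break between array sets. Most panels step up at 24 h, before the break, and stay high to 72 h; PDF2.1 and ATLP-1 take more of their rise across the break (1.61 and 1.31).

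Of 5 measured phloem genes 2 were kept higher and 1 lower, and of 6 measured procambium and cambium genes 2 were kept higher and 0 lower (against 4.4% higher and 7.23% lower of all genes). BRL1, which encodes a vascular brassinosteroid receptor, had 6.28, 6.48, 6.97 and 7.05 on the second day, against 5.06, 4.93, 5.34 and 5.71 on the first (2.71-fold, adjusted p = 0.000324). AT5G02460 rose 2.46-fold (adjusted p = 0.000373). The other 4 procambium and cambium genes had differences of 0.14 to 0.55, under the threshold of 1, at adjusted p of 0.00373 to 0.212. OPS, which promotes protophloem differentiation, had 7.02, 7.35, 7.70 and 7.75, against 5.50, 5.78, 5.72 and 6.98 (2.75-fold, adjusted p = 0.000953), with 1.42 of its 1.46 inside the array sets. CLE45, whose peptide restrains protophloem differentiation, had 4.80, 4.34, 4.44 and 5.36, against 3.15, 3.04, 2.91 and 2.92. It met the trend rule by a second-day change of 0.53, but the step across the break was 1.89, and floored at the 40th percentile the difference was 0.13 (adjusted p = 0.731). CLE41 and CLE44, which encode the procambium peptide TDIF, rose over the first day by 1.07 and 1.11 but differed by 0.49 and 0.33 between the days (adjusted p = 0.0745 and 0.162). SWEET11, a sucrose exporter of phloem loading, was the phloem gene kept lower.

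Xylem wall genes showed rises inside each day that the day means hide. Of 7 measured, 0 were called between the days by limma. At an unadjusted p under 0.05 there were 0 too, against 1900 higher and 5128 lower of all 10982 genes. Over the first day 5 rose and over the second 3, against 4.48% and 0.291% of all genes. The second-day calls rest on single arrays, since 0 of all genes rose over the second day without the 30 h or the 48 h array. The genes named here were chosen after their values were seen. IRX15-L, needed for xylan synthesis, had 7.30, 7.74, 8.50 and 9.33 on the second day, against 6.39, 6.89, 8.24 and 8.27 on the first. It rose by 2.1 over the first day and by 2.06 over the second (adjusted p = 0.000886 and 0.00813), with a step of -0.97 across the break. GUT2, a xylan glycosyltransferase gene, had 8.19, 8.38, 9.19 and 9.68, against 6.86, 7.42, 9.0 and 8.74, and IRX15 3.86, 3.89, 4.36 and 5.02, against 3.06, 3.40, 4.49 and 4.79. Each rose in both days, and the days overlapped in both genes. All 7 genes were lower at 30 than at 24 h, with a median step of -0.55 against -0.13 over all genes. Whether the array sets had a part in that step was not tested. Without the 18, 24, 30 and 36 h arrays the differences of GUT2, IRX15-L and IRX15 were 2.3, 2.28 and 1.45, and each was called. Without the 18 h array alone GUT2 was called too (1.19).

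Auxin genes went both ways. IAA30, an Aux/IAA repressor gene, had 6.33, 6.57, 6.71 and 6.33, against 3.78, 4.16, 4.98 and 6.19 (3.26-fold, adjusted p = 0.00318). It climbed through the first day and was level on the second, with fitted changes of 2.41 and 0.04. IAA29 rose 2.29-fold (adjusted p = 0.00169), at fitted changes of 1.46 and 0.01, and without the 6 h array its difference was 0.98, under the threshold. GH3.3, which encodes an auxin-conjugating enzyme, had 11.90, 11.94, 11.58 and 11.34, against 12.70, 12.70, 12.79 and 12.59. Its difference of -1.01 ± 0.11 lay at the threshold, and without the 18, 42 or 48 h array it was -0.97, -0.97 and -0.89 and not called. After quantile normalization it was -0.50. YUC6, an auxin synthesis gene noticed after its value was seen, rose 3.1-fold (adjusted p = 0.000156). The other 3 measured genes of the auxin response list had differences of -0.63 to 0.92, under the threshold of 1, at adjusted p of 0.00241 to 0.397. Neither cytokinin response regulator of the list reached a difference of 1 (ARR15 0.00, adjusted p = 0.995, and RR16 -0.85, adjusted p = 0.0263).

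Photosynthesis genes of the nucleus were lower on the second day. Of 38 measured genes of the photosystems, antennae, NDH complex, their assembly and the Calvin cycle, 31 were called lower and 0 higher, and 29 were kept (against 7.23% of all genes). The median difference was -1.39, of which the median step across the break was -0.57 and the median part inside the sets -0.77. Over the first day 19 of the 38 fell by the test, and over the second day 1 did, against 5.92% and 1.55% of all genes. Under quantile normalization 25 were called lower and with values as deposited 15, with 4 of 38 differences above 0 in that setting.

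All 3 measured Calvin cycle genes were kept lower. PRK, phosphoribulokinase, had 6.95, 7.35, 6.77 and 6.30 on the second day, against 9.81, 9.71, 9.30 and 8.05 on the first. Its level was lower on each array from 12 to 30 h than on the one before, giving a difference of -2.37 ± 0.35 (adjusted p = 0.000279). RCA had 9.10, 9.19, 9.03 and 8.76, against 11.71, 11.44, 11.21 and 10.33 (difference -2.15, adjusted p = 8.7e-05). SBPASE, sedoheptulose-bisphosphatase, had 8.56, 8.92, 8.64 and 8.05, against 11.14, 11.10, 10.48 and 9.35 (difference -1.97, adjusted p = 0.00052). All 3 fell over the first day, by 1.32 to 1.79 in the fit, and none passed the test over the second.

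Of 8 measured photosystem genes 6 were kept lower (against 7.23% of all genes). LHCB4.1, an antenna protein of photosystem II, had 8.73, 8.35, 8.19 and 8.06, against 10.77, 10.30, 10.27 and 9.86 (difference -1.97, adjusted p = 3.43e-05). PSAN and PSAE-1, subunits of photosystem I, differed by -1.92 and -1.84, and LHCB4.2 by -1.75. PSAE-1 fell in small steps through both days, with 10.12, 9.85, 9.44 and 9.10 against 11.93, 11.58, 11.39 and 10.98. LHCB4.2 had a fitted second-day change of 0.05, and its step across the break was -1.33. NdhL, a subunit of the NDH complex, fell further, with 7.56, 7.69, 7.46 and 6.49 against 10.63, 10.46, 9.94 and 8.50 (difference -2.58, adjusted p = 0.000358). PIFI, needed for NDH function, differed by -2.28. NdhU, the NDH assembly gene CRR42 and the thylakoid protein gene CaS, chosen after their values were seen, differed by -1.99, -2.07 and -2.19.

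Linked chloroplast pathways went the same way. PORB, a protochlorophyllide reductase gene, had 7.43, 6.67, 5.74 and 6.29, against 10.09, 8.89, 7.26 and 7.52. The days overlapped, since the 18 h array lay below that of 30 h, and 1.82 of its fall by 1.91 lay inside the array sets. CHLM, of the magnesium branch of chlorophyll synthesis, differed by -1.41 (adjusted p = 0.000361). Of 9 tetrapyrrole genes 6 were kept lower and 0 higher (against 7.23% and 4.4% of all genes). All 3 measured photorespiration genes were kept lower, HPR (hydroxypyruvate reductase) by 1.71 and the loci AT1G11860 and AT1G80380 by 1.83 and 1.27.

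Genes encoded in the plastid itself gave another picture. All 41 measured photosynthesis genes of the plastid had differences below 0, with a narrow range of -1.29 to -0.68. Their median was -0.80, against -0.25 over all genes. Of the 41, 4 were called and kept, a share near the 7.23% of all genes kept lower. At an unadjusted p under 0.05 all 41 were lower, against 5128 of all 10982 genes. For the 41 the median step across the break was -0.55 and the median part inside the sets -0.24. rbcL, the large subunit of Rubisco, had 13.02, 13.05, 12.87 and 12.76, against 13.95, 13.89, 13.75 and 13.69. Its difference of -0.90 (adjusted p = 3.43e-05) lay under the threshold of 1. Its changes inside the days, -0.28 on the second and -0.27 on the first, lay under 0.5, so it is not counted as lower. psbM, of photosystem II, was kept, with 10.67, 10.58, 10.06 and 9.77 against 12.01, 11.60, 11.41 and 11.20. Of 18 plastid genes of transcription and translation 6 were kept lower (against 7.23% of all genes), among them rps19 (difference -1.31) and rpoC1 (-1.23). At an unadjusted p under 0.05 all 18 were lower. After quantile normalization 0 of the 41 and 0 of the 18 were called, at medians of -0.17 and -0.41, and with values as deposited 0 and 0, at -0.13 and -0.27.

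Of 8 measured SWEET sugar transporter genes 4 were kept lower and 0 higher, against 7.23% and 4.4% of all genes. SAG29, also known as SWEET15, a sucrose exporter of senescing tissue, had 7.09, 6.71, 5.80 and 4.92 on the second day, against 10.24, 10.60, 9.47 and 7.11 on the first. It stood at 5.14 at 0 h and at 3.83 at 72 h. The step between 24 and 30 h was -0.02, so that nearly the whole difference of -3.22 ± 0.68 lay inside the array sets (adjusted p = 0.0018). SWEET4 had 8.55, 8.16, 7.47 and 6.57, against 9.85, 10.08, 9.98 and 9.12, and 4.73 at 0 h. Its first 3 arrays were level, and the gene fell by 1.99 over the second day (adjusted p = 0.0332). SWEET11 differed by -1.30 (adjusted p = 0.00507) and SWEET1, chosen after its value was seen, by -2.22. The other 4 SWEET genes did not pass, with differences of 0.63 for SWEET13 and below 0 for the rest. APL3, a large subunit of the starch synthesis enzyme ADP-glucose pyrophosphorylase, had 9.31, 8.62, 8.35 and 7.97, against 10.60, 10.78, 10.24 and 9.31, and fell in each day by the test (-1.29 and -1.32 over 18 h). AMY1, an alpha-amylase gene, went the other way with a rise of 2.54-fold. Of 9 starch genes 4 were kept lower and 1 higher.

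Of 5 measured cold-responsive genes 3 were kept lower (against 7.23% of all genes), each with its highest level at 6 h. COR15A, which encodes a chloroplast protein that protects membranes in freezing, had 8.73, 8.0, 7.70 and 7.66, against 12.32, 11.68, 10.99 and 9.86, and 9.35 at 0 h. Its difference was -3.19 ± 0.44 (adjusted p = 0.000214), of which -2.06 lay inside the array sets. KIN2 had 7.43, 7.54, 7.02 and 6.33, against 11.20, 9.70, 9.28 and 8.11 (difference -2.49, adjusted p = 0.00156). COR47, a dehydrin gene, differed by -1.46, and the other 2 of the 5 measured cold genes, COR27 and AT4G33980, by 0.34 and 0.00. COR27 had fitted changes of -2.06 over the first day and -2.03 over the second, and AT4G33980 of -1.25 and -1.32. Across the break they stepped up by 1.67 and 1.08, and their parts inside the array sets were -1.32 and -1.08. SPCH, which starts the stomatal lineage, had 4.80, 5.04, 4.86 and 4.31, against 7.06, 6.26, 6.12 and 6.14. Its difference of -1.64 (adjusted p = 0.000186) lay mostly at the break, with -0.30 inside the array sets. The other measured gene of the lineage, FMA, lay under the threshold of 1 (-0.53, adjusted p = 0.00503).

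Of 36 UDP-glycosyltransferase genes 11 were kept lower and 0 higher (against 7.23% and 4.4% of all genes), with a median of -0.72, against -0.25 for all genes. Of the 36 differences 5 were above 0, and 15 with values as deposited. UGT84A3, known to act on hydroxycinnamates, had 4.67, 4.23, 3.59 and 3.86, against 7.53, 7.17, 6.65 and 6.20 (difference -2.80 ± 0.28, adjusted p = 4.87e-05). UGT73C1 had 4.41, 4.05, 4.02 and 3.77, against 8.07, 6.96, 5.68 and 4.85. Its fall lay chiefly in the first day (-3.28 over 18 h, adjusted p = 0.000186), and floored at the 40th percentile the call ended (-1.56). UGT76E11 fell in both days, by 1.34 over the second and 1.76 over the first, and UGT71B1, chosen after its value was seen, differed by -2.22. Of 13 CYP71B cytochrome P450 genes 5 were kept lower and 0 higher, and all 13 differences were below 0 after median centring and 9 of 13 with values as deposited. CYP71B34, chosen likewise, fell by 1.85. Of 15 serine carboxypeptidase-like genes 3 were kept higher and 2 lower, at a median of -0.23. Of 14 beta-glucosidases 2 were kept higher and 2 lower, at a median of 0.04, and of 13 glutathione transferases 1 higher and 2 lower, at a median of -0.65.

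Anthocyanin genes gave no call between the days. AT5MAT, an anthocyanin malonyltransferase gene, had 6.16, 5.77, 4.99 and 4.3, against 6.36, 7.11, 6.44 and 5.24. DFR, dihydroflavonol reductase, had 9.16, 9.21, 8.73 and 6.89, against 8.81, 10.33, 10.13 and 8.0. All 4 measured genes peaked at 12 h and stepped up by a median of 0.97 across the break. Their differences were -1.11 to -0.82, at adjusted p from 0.0694 to 0.252. At an unadjusted p under 0.05, 1 of the 4 was lower, against 5128 of all 10982 genes. Without the 24 h array AT4G14090, AT5MAT and UF3GT were called (-1.53, -1.33 and -1.36), and without the 30 h array AT4G14090 and AT5MAT (-1.41 and -1.27).

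The expansin, TBL and glycoside hydrolase families of the cell wall held kept genes in both directions. Of 14 expansin genes, which loosen walls, 3 were kept higher and 2 lower (against 4.4% and 7.23% of all genes). EXPA20 rose 2.31-fold, while EXPA16 had 7.72, 7.61, 7.16 and 6.38, against 9.80, 9.09, 9.24 and 8.84 (difference -2.02). Of 18 TBL genes, a family of wall polysaccharide acetylation, 3 were kept higher, led by TBL36 (3.28-fold), and 2 lower, led by TBL26 (difference -2.03). Of 24 measured genes of wall xyloglucan enzymes and family 9 hydrolases 1 was kept higher and 1 lower, with 17 differences below 0, and of 7 cellulose synthase-like genes 0 higher and 1 lower. Beside GH9B6, the family 9 hydrolase gene GH9B12 differed by -1.72, and CSLB03, a cellulose synthase-like gene, had 5.36, 5.23, 4.60 and 4.22, against 8.35, 8.23, 7.17 and 5.79 (difference -2.53). These expansin, TBL and GH9B12 examples were chosen after their values were seen, as were AMY1, TUB7 and TBL34, which is named below. So were CLE41, CLE44 and the xylem wall, plastid and anthocyanin genes named above. Among beta-glucosidases BGLU33, also chosen so, rose 4.32-fold.

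**Figure D5:**
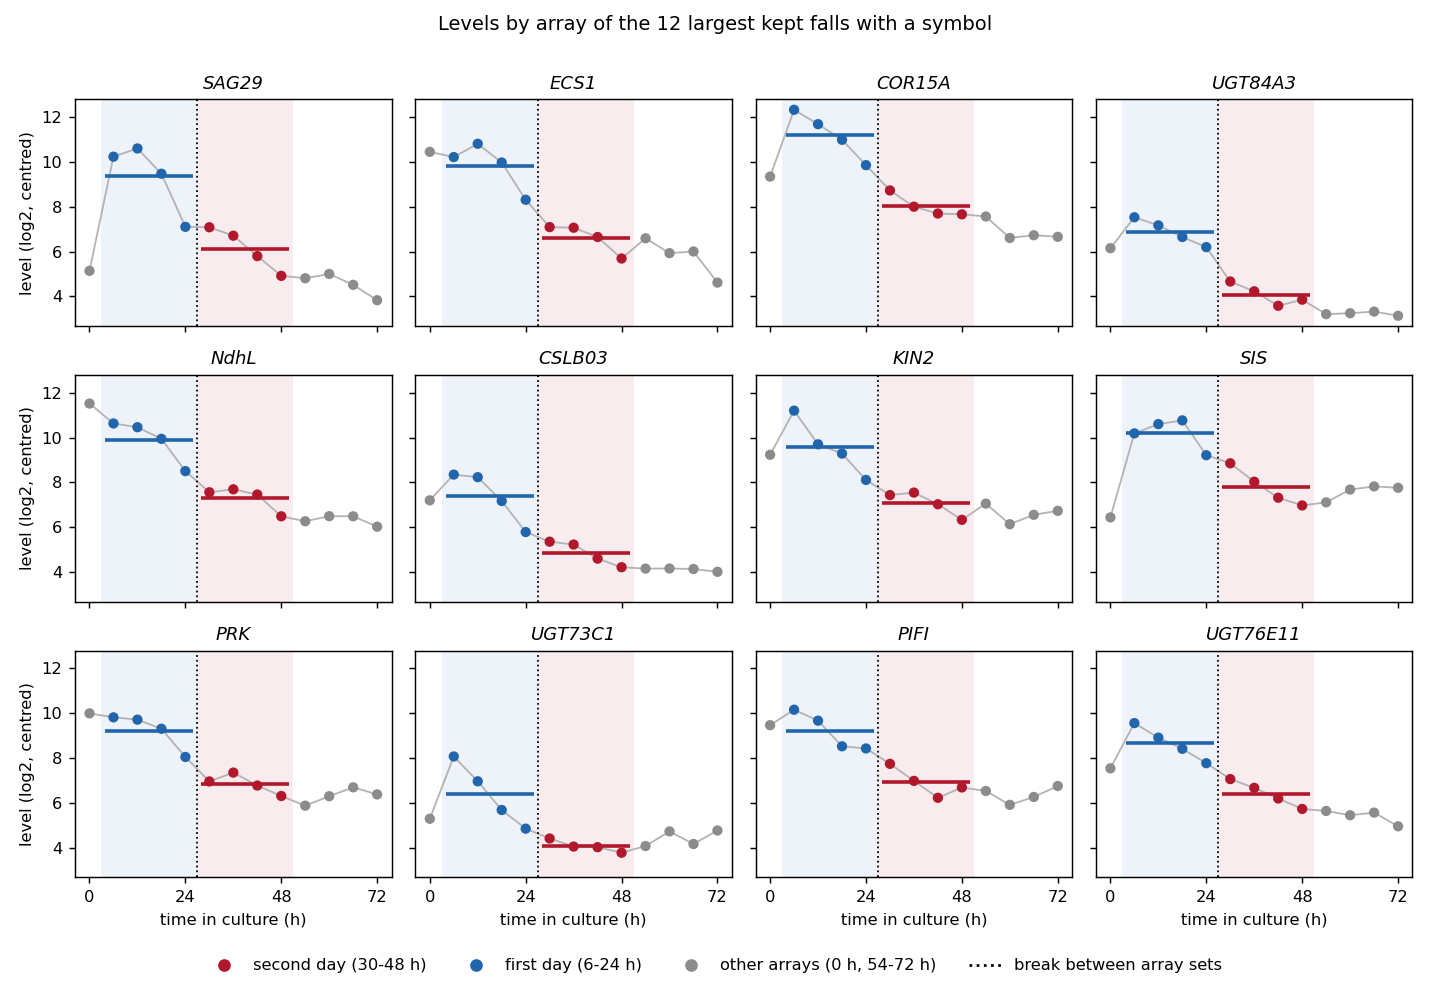
Log2 level on each of the 13 arrays by time in culture (h) for the 12 largest kept falls with a symbol; horizontal bars are day means and the dotted line marks the break between array sets. Most courses decline inside both days as well as across the break, and SAG29, at 5.14 at 0 h, starts the first day at 10.24.

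The largest kept falls of any gene were at loci mostly without a symbol. AT5G42530 had 9.85, 9.60, 8.93 and 8.43, against 12.97, 13.29, 12.73 and 11.34 (difference -3.38 ± 0.46, adjusted p = 0.000189). AT1G68570, listed with the synonym NPF3.1, of the NRT1/PTR transporter family, had 7.54, 6.94, 6.26 and 5.71, against 10.57, 10.40, 10.02 and 8.65 (difference -3.30). It fell by the test in each day, with fitted changes of -1.85 over the second and -1.84 over the first. AT1G80130 differed by -3.26, and ECS1 and SIS, among those with a symbol, by -3.20 and -2.40. Of the 12 steepest trends of a single day given next, LCR25 alone carries a symbol. Over the second day AT5G47635, AT5G37478 and AT1G13635 rose by 3.41, 2.88 and 2.26, and AT2G10940, AT1G12845 and AT3G54400 changed by -3.02, -2.78 and -2.77. Over the first day LCR25, AT4G21745 and AT5G52390 rose by 5.02, 3.95 and 3.83, and AT1G73600, AT1G27020 and AT2G23910 changed by -4.13, -4.1 and -3.78. Of the 12, AT5G47635, AT5G37478, AT2G10940, AT3G54400, LCR25, AT5G52390 and AT1G27020 were also kept between the days. The call of AT1G27020 (-2.0) ended without the 6, 12, 42 or 48 h array (-1.28, -1.74, -1.85 and -1.71), and that of AT5G47635 (1.62) without the 12, 42 or 48 h array (1.40, 1.34 and 1.05). Without the 24 h array AT1G73600 and AT2G23910 were called between the days (-2.11 and -2.07), the first of these also without the 18 h array (-1.96), and without the 30 h array AT1G12845 and AT1G13635 (-1.25 and 1.15). AT1G36060, the 1 measured gene of the wound list, rose 2.44-fold and was level on the first day, with 5.43, 5.52, 6.00 and 6.61 against 4.57, 4.61, 4.53 and 4.67.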

How the data were processed

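The deposited table holds 1 column of log values per array for 38408 probe sets of an Affymetrix Arabidopsis array, and is used here as the authors' log2 values. The submitters' processing notes name GCOS. The log base, the background correction and any normalization were not given in the sources used here. Platform annotation gave 1 gene to 16722 probe sets, several to 759 and none to 20927. Of the 16722, 16574 matched RefSeq's TAIR10.1 annotation, which supplied the symbols. Ambiguous and unannotated probe sets stayed unnamed. Each array was centred on its median, the dimmest 30% of probe sets were left out and each gene was read from its brightest probe set. This gave 10982 genes, of which 1330 carry a symbol.

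With limma 3.58.1 (R 4.3.3), 1 mean per day and 1 for 0 h were fitted over all 13 arrays (9 residual degrees of freedom, eBayes with intensity trend). A second fit added a slope in each day (6 residual degrees of freedom). Tests were two-sided, and both fits adjusted p-values with Benjamini-Hochberg over all genes. The number of arrays limits the precision. A call asks for a difference or trend of at least 1. A true log2 change of 1 lies at that threshold, so its recovery, given next, depends on the threshold as well as on the arrays. Recovery with a break between array sets was not tested. Tested on simulated data with 200 of 10982 genes changed, log2 changes of 1, 2 and 3 were recovered in 45, 98.5 and 100% for the day comparison, 9.5, 86.5 and 98.5% for the first-day trend and 4, 85.5 and 96.5% for the second-day trend.

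Named genes were, among kept genes whose days did not overlap, the 12 largest rises and 12 largest falls with a symbol and the 4 largest each way of any gene, then up to 4 kept members per list, and the 3 largest called trends per day and direction. The comparison, the 24 gene lists (385 genes, 68 of them tested) and the 40 families were chosen with earlier results of these data known. Genes picked as examples outside the rule are said to be. Alternatives covered scaling, filters, floors, probe set summaries, fit settings and left-out arrays. Promoter motifs had been planned and were not analysed here. Figures used matplotlib 3.10.9 in Python 3.11.15.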

Additional observations from a re-analysis of the deposited data

Results flagged for a closer look

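In 8 of the 208 day groups of named genes, 1 array stood apart from the other 3 by Dixon's test at the 95% level, which chance alone gives in about 1 of 20 groups. In 5 of them the 24 h array was the high one of its day. AT3G02120 stood at 6.02 there, against 3.15 to 3.54 at 6 to 18 h, and BUBR1 at 8.34, against 6.31 to 6.61. TOPII stood at 8.83, against 7.06 to 7.18, KINESIN-12B at 7.67, against 5.47 to 5.83, and AUR3 at 7.47, against 6.31 to 6.47. SPCH was high at 6 h, at 7.06, against 6.12 to 6.26 in the rest of the first day. On the second day PDF2.1 was low at 30 h, at 6.96, against 8.82 to 8.95, and AUR1 was low at 30 h, at 9.64, against 10.29 to 10.34. Each of these genes has 1 array per time, so no second array of 24 or 30 h exists among these data to set beside them.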

How the results depend on the processing

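No paired analysis was possible because the labels give no replicate numbers and each time has 1 array. Of 86 named genes called between the days, 68 kept direction and call under every alternative run for them, with 1846 alternative values on the same side, 36 no longer past the threshold and 0 reversed. Of uncalled values, AT1G12845 turned to 0.0037 with values as deposited, and leaving out each array in turn gave -0.31 to 0.98 for AT4G21745 and -0.11 to 0.37 for TBL34, below 0 without the 6 h array. With values as deposited 1821 genes were called higher and 151 lower, 1169 and 143 were kept, and 397 fell over the first day and 91 over the second. Centred on probe sets that name 1 gene, 571 were called lower, 499 kept lower and 81 fell over the second day. Without a filter on dim probe sets 1697 were called and 1295 kept lower, and without the 18, 24, 30 and 36 h arrays 1980 and 1679; the share of calls that were higher was then 25.5% and 29.4%, against 38.1%. Asking for a trend of 1 kept 312 higher and 486 lower genes, asking for a trend of 0.5 in both days 279 and 373, and asking for 1 inside the array sets 268 and 282. With the dimmest 50% of probe sets left out 433 genes fell over the first day. Floored at the 40th percentile 269 rose over the first day, and 1 rose and 17 fell over the second. On the 8 arrays alone 1 rose and 38 fell over the second day. Leaving out each array of a day in turn gave 0 to 54 rising and 0 to 93 falling genes over the second day, 448 to 566 and 643 to 758 over the first, 503 to 671 called higher, 740 to 1266 called lower, 407 to 504 kept higher and 622 to 937 kept lower. The causes were not tested. No time has a second array, and array set and day cannot be told apart.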
